A study of Danio rerio with 12 samples.

Results

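The adrenergic receptor genes adra1aa, adra1ab, adra1d, adra2a, adra2b, adra2c, adrb1 and adrb2a were examined in whole zebrafish (Danio rerio) larvae. They were taken by symbol from the probe annotation of the array. All 8 were found, among 18963 genes that had at least 1 probe set with a single gene symbol, and their probe sets were among the 73244 features of the array. Each had 1 probe set except adrb1, which had 2, of which the one with the higher mean over all 12 arrays was used and the other is given beside it. A further 7 adrenergic receptor genes on the array are described after these 8.

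All larvae were wild type of the AB line, and every group, controls included, had been freed from its chorion with Proteinase K and injected with KCl solution that held TRITC-dextran, a fluorescent tracer. The 5-HT groups received serotonin (5-HT) and the reserpine groups reserpine, in both cases at the zygote stage per the sample titles. The control groups received the same tracer solution with DMSO and ethanol, the solvents of reserpine. The larvae were 2 or 4 days post fertilisation (dpf) at collection, which gave 6 groups with 2 biological replicates each, and each array was hybridised with RNA from a pool of 30 to 40 larvae. No dose is stated in the labels. Per its title, the study asked about the influence of pre-neural serotonin on late embryos and on behaviour.

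Adrenergic receptors are G protein-coupled receptors for noradrenaline and adrenaline, the transmitters of sympathetic neurons, of the locus coeruleus in the brainstem and of the chromaffin cells. The alpha-1 receptors couple mainly to Gq and raise intracellular calcium, as in the contraction of vascular smooth muscle. The alpha-2 receptors couple to Gi, lower cyclic AMP, and often sit on the nerve endings that release the transmitter, while in fish skin they also drive the aggregation of melanin granules. The beta receptors couple to Gs and raise cyclic AMP, and in the vertebrate heart they raise rate and force of contraction. Reserpine blocks the vesicular monoamine transporter, which loads noradrenaline as well as serotonin and dopamine into vesicles.

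Expression is given as the deposited log2 value of a probe set on an array. The mean of the 8 genes over 12 arrays lay between the 55.6th and the 89.3rd percentile of all features, and values of different genes are not compared as levels because each comes from its own probes. Within groups the pooled SD of the 8 genes was 0.12 to 0.22, against a median of 0.20 over all features tested. The labels of 4 dpf reserpine replicate 2 disagree on its age. Its mean over 10 exocrine pancreas genes was 12.29, the lowest of the 4 dpf arrays. The other 4 dpf arrays had 12.40 to 12.74, and the 2 dpf arrays had 6.55 to 8.05. In RNA from whole larvae, fewer cells of a type and less RNA per cell cannot be told apart.

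**Figure D1:**
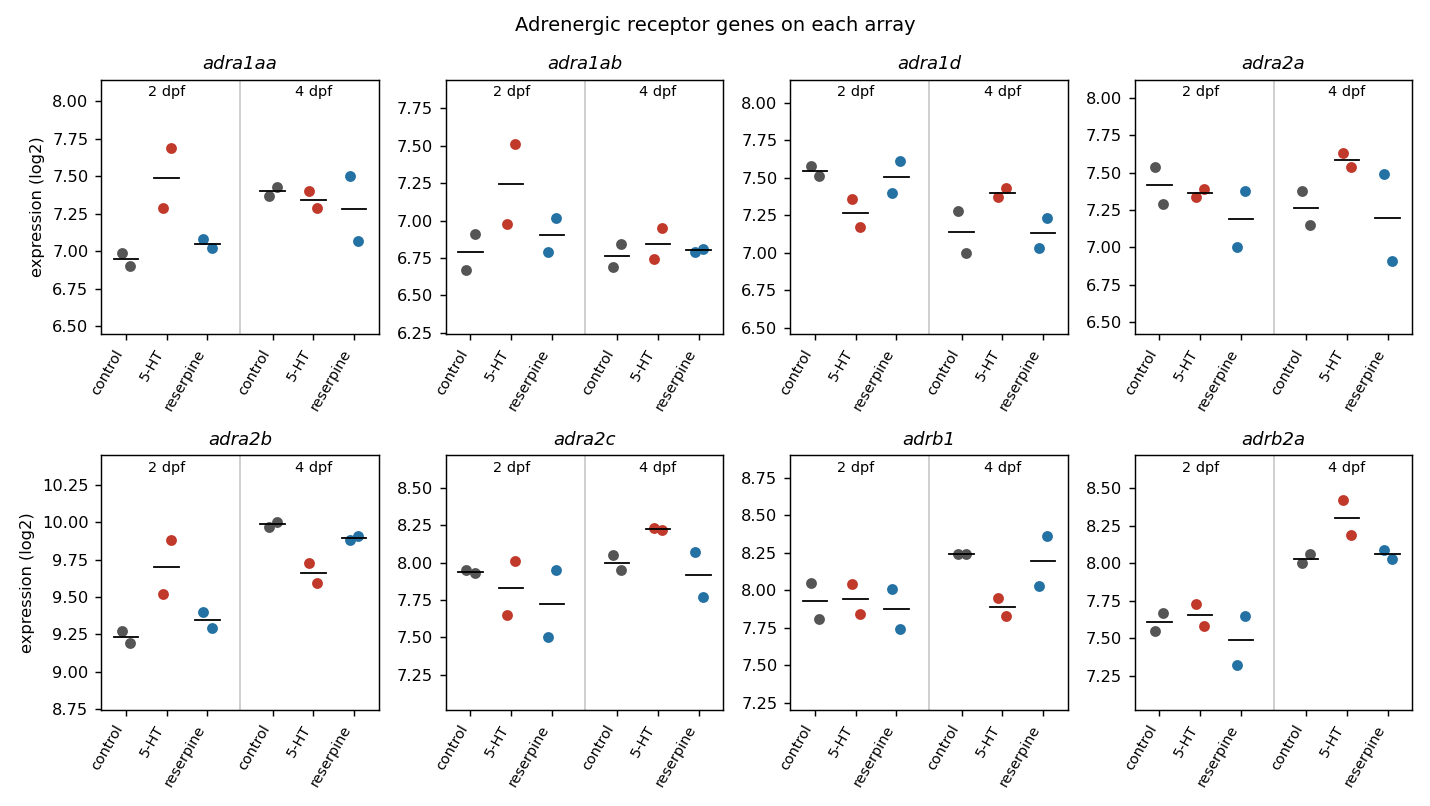
Expression (log2, vertical axis) of the 8 adrenergic receptor genes on each of the 12 arrays. Points are arrays, black lines group means of 2 arrays, and every panel spans the same log2 range. The 6 arrays of 4 dpf lay above the 6 arrays of 2 dpf for adrb2a, and for adra2b the 5-HT arrays lay above the other 2 dpf arrays and below the other 4 dpf arrays.

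Both age comparisons and injection comparisons were tested with limma across 58127 features, with 1 mean for each group and Benjamini-Hochberg adjustment over all features. A gene is said to rise or fall only at an adjusted p under 0.05. Averaged over the 3 injections, adrb2a and adra2b rose from 2 to 4 dpf, and the other 6 of the 8 receptor genes did not pass. In this averaged comparison 24.8% of all features were called, and 37.4% of the 18385 genes taken with 1 feature per symbol, so that 2 of 8 is not above the background. The median change of the 8 genes was 0.19 on the log2 scale, against -0.06 over all features tested. The p-values measure the spread between the pools of larvae.

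The beta-2 receptor gene adrb2a gave the clearest separation of the ages. Its expression was 7.55 and 7.67 on the 2 dpf control arrays, 7.73 and 7.58 on the 5-HT arrays, and 7.32 and 7.65 on the reserpine arrays. At 4 dpf it was 8 and 8.06 in controls, 8.42 and 8.19 after 5-HT, and 8.09 and 8.03 after reserpine. Every 4 dpf array lay above every 2 dpf array. Among all features tested 14.5% had ages that did not overlap in this way, and adrb2a was the 1 of the 8 receptor genes that did. The averaged rise was 0.55 (SE 0.09, adjusted p = 0.00227), a 1.46-fold difference. It passed without any 1 of the arrays, after quantile normalization, with no filter and with a replicate block. The other alternatives repeated the fit for this gene and could not end the call.

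By injection, adrb2a rose by 0.65 in 5-HT larvae (SE 0.16, adjusted p = 0.0335), where 9.22% of features were called. The changes of 0.42 in controls (adjusted p = 0.117) and 0.58 in reserpine larvae (adjusted p = 0.0583) did not pass. The call in 5-HT larvae was lost without any 1 of their 4 arrays, at adjusted p = 0.0927 and 0.157 with 2 dpf replicate 1 or 2 left out, and at 0.207 and 0.0722 with 4 dpf replicate 1 or 2 left out. It was also lost when the fit held the 5-HT arrays alone (adjusted p = 0.0751). In order of group means, reserpine, control and 5-HT at 2 dpf overlapped their neighbours, then came a gap to control and reserpine at 4 dpf, which overlapped each other, and 5-HT at 4 dpf stood highest at 8.31 ± 0.16 (SD, n = 2).

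The beta-1 receptor gene adrb1, the main cardiac beta receptor gene of mammals, differed less between ages. Control arrays read 8.05 and 7.81 at 2 dpf and 8.24 and 8.24 at 4 dpf. In 5-HT larvae it read 8.04 and 7.84 at 2 dpf and 7.95 and 7.83 at 4 dpf, and in reserpine larvae 8.01 and 7.74, then 8.03 and 8.36. The ages overlapped in the 5-HT larvae and did not overlap in the other larvae. With 2 arrays on each side such a gap is easily reached. Its share over all features was not counted, so it is not read as an age pattern. The changes were 0.31 in controls, -0.05 after 5-HT and 0.32 after reserpine, and the average of 0.19 did not pass (adjusted p = 0.187).

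The second probe set of adrb1 read lower and did not follow the first in every group. It gave 6.92 and 6.37 in controls, 6.84 and 6.49 after 5-HT, and 7.05 and 7.31 after reserpine at 2 dpf. At 4 dpf it gave 7.13 and 7.10 in controls, 6.70 and 7.05 after 5-HT, and 7.86 and 7.45 after reserpine. On this probe set both reserpine arrays lay above the other 4 arrays of their age at 2 and at 4 dpf, which the first probe set did not show. Reserpine arrays stood apart, above or below, for 6.02% of all features tested at 2 dpf and 10.8% at 4 dpf. The share that did so at both ages was not counted. Its averaged age change was 0.39 (adjusted p = 0.0653). With the mean of both probe sets in place of the first, adrb1 rose by 0.29 on average over the injections (adjusted p = 0.0497).

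Among the alpha-2 receptors adra2b changed with age in control larvae. Its expression was 9.27 and 9.19 on the 2 dpf control arrays and 9.97 and 10 at 4 dpf. After 5-HT it was 9.52 and 9.88 at 2 dpf and 9.73 and 9.59 at 4 dpf, and after reserpine 9.40 and 9.29, then 9.88 and 9.91. The ages were apart in control and reserpine larvae and overlapped in 5-HT larvae. These gaps rest on 2 arrays on each side, and their share over all features was not counted.

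In controls adra2b rose by 0.76 (SE 0.15, adjusted p = 0.0143), a 1.69-fold difference, in a comparison that called 11.3% of features. It was the 1 receptor gene of the 8 called there, beside 15.5% of the genes taken with 1 feature per symbol. In reserpine larvae the change was 0.55 (SE 0.15, adjusted p = 0.059). That comparison called 6.95% of features, 11.1% of the genes taken with 1 feature per symbol and none of the 8 genes. Of the 8, 3 had an unadjusted p under 0.05 in reserpine larvae, against 22.9% of all features. The count was 4 in controls (27.1% of features), 1 in 5-HT larvae (25.7%) and 3 in the average over injections (37.0%). In 5-HT larvae the change of adra2b was -0.04, with a 95% interval from -0.38 to 0.30. The average over injections was 0.42 (SE 0.09, adjusted p = 0.00702), a mean of these unequal changes. The call in controls was lost without any 1 of the 4 control arrays, at adjusted p = 0.0674 and 0.0505 with 2 dpf replicate 1 or 2 left out, and at 0.0811 and 0.101 with 4 dpf replicate 1 or 2 left out. The averaged call kept its side of the threshold without any 1 of the arrays, after quantile normalization, with no filter and with a replicate block. The other alternatives repeated the fit for this gene and could not end the call.

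The order of group means for adra2b ran from control (9.23 ± 0.06, SD, n = 2) and reserpine (9.35 ± 0.08) at 2 dpf through 5-HT at 4 dpf (9.66 ± 0.10) and at 2 dpf (9.70 ± 0.25) to reserpine (9.90 ± 0.02) and control (9.99 ± 0.02) at 4 dpf. The 5-HT groups of both ages overlapped, and 5-HT at 2 dpf reached the lower reserpine value of 4 dpf at 9.88. The other neighbours in this order did not overlap.

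The alpha-2 receptor genes adra2a and adra2c, which in mammals encode the main presynaptic autoreceptors, showed no age change that passed. For adra2a the 2 dpf arrays read 7.54 and 7.29 in controls, 7.34 and 7.39 after 5-HT, and 7 and 7.38 after reserpine. The 4 dpf arrays read 7.38 and 7.15, 7.63 and 7.54, and 7.49 and 6.91 in the same order of groups. All neighbours in the order of its group means overlapped, and the averaged change was 0.03 with a 95% interval from -0.25 to 0.30.

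For adra2c the values were 7.95 and 7.93 in controls, 7.65 and 8.01 after 5-HT, and 7.5 and 7.95 after reserpine at 2 dpf. At 4 dpf they were 8.05 and 7.95, 8.23 and 8.22, and 8.07 and 7.77. The 5-HT arrays of 4 dpf were the highest of the 12, and the other 5 groups overlapped their neighbours in the order of means. The averaged change was 0.22 (adjusted p = 0.186), with 0.06 in controls, 0.40 after 5-HT and 0.20 after reserpine.

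Alpha-1 receptors drive smooth muscle contraction in mammals. Of the 5 alpha-1 receptor genes on the array, adra1aa, adra1ab and adra1d passed in none of the 4 age comparisons, while adra1ba and adra1bb, described with the other receptors, had calls. For adra1aa the control arrays read 6.99 and 6.90 at 2 dpf and 7.37 and 7.43 at 4 dpf. The 5-HT arrays read 7.29 and 7.69, then 7.40 and 7.29, and the reserpine arrays 7.08 and 7.02, then 7.5 and 7.07. The change was 0.46 in controls (SE 0.18, adjusted p = 0.141), -0.15 after 5-HT and 0.24 after reserpine. The 2 dpf controls were the lowest group, apart from the 2 dpf reserpine arrays next to them, and the other neighbours overlapped.

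For adra1ab the 2 dpf arrays read 6.67 and 6.91 in controls, 6.98 and 7.51 after 5-HT, and 6.79 and 7.02 after reserpine. At 4 dpf the values were 6.69 and 6.84, 6.74 and 6.95, and 6.79 and 6.81. All 6 groups overlapped their neighbours in the order of means, and the averaged change was -0.18 (adjusted p = 0.288). The widest within-group gap was that of the 5-HT arrays at 2 dpf.

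The gene adra1d, whose product in mammals lies on large arteries and in the brain, read 7.58 and 7.51 in controls, 7.36 and 7.17 after 5-HT and 7.40 and 7.61 after reserpine at 2 dpf. At 4 dpf it read 7.28 and 7, 7.37 and 7.43, and 7.03 and 7.23. Its 4 dpf arrays lay below those of 2 dpf in controls and after reserpine, and above them after 5-HT. Each gap rests on 2 arrays on each side, and the share of such gaps over all features was not counted. The changes were -0.41 in controls (adjusted p = 0.129), 0.14 after 5-HT and -0.38 after reserpine (adjusted p = 0.188), and the averaged value was -0.22 (adjusted p = 0.114).

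**Figure D2:**
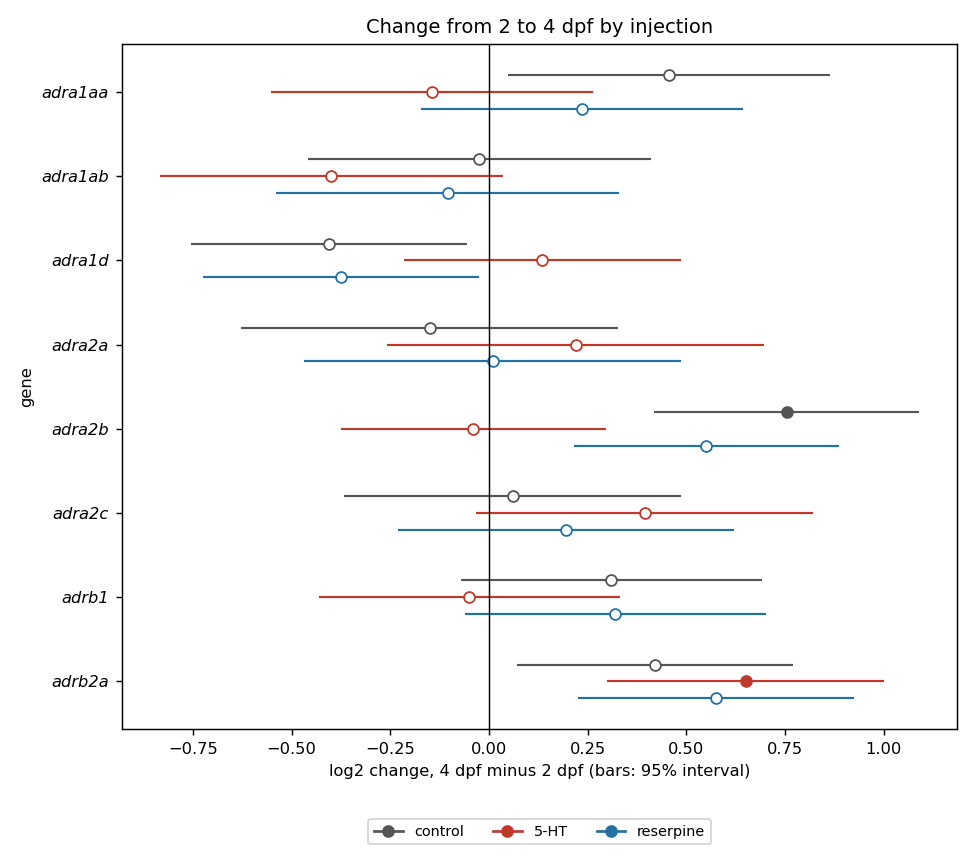
Log2 change from 2 to 4 dpf (horizontal axis) of the 8 receptor genes in control, 5-HT and reserpine larvae, with 95% intervals from limma. Filled points passed at an adjusted p under 0.05, which were adra2b in controls (0.76) and adrb2a after 5-HT (0.65), and open points did not.

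Injection of 5-HT was compared with control at each age. None of the 8 receptor genes passed at either age. At 2 dpf the largest differences were higher values of adra1aa (0.55, SE 0.18, adjusted p = 0.209), adra2b (0.47, SE 0.15, adjusted p = 0.192) and adra1ab (0.46, SE 0.19, adjusted p = 0.314), and these 3 had an unadjusted p under 0.05. limma called 4 of 58127 features there (0.00688%), while 14.9% had an unadjusted p under 0.05. Without 2 dpf control replicate 2 it called 208 features, and without any 1 of the other 2 dpf control and 5-HT arrays 0. The 95% intervals of the 8 differences lay within -0.63 and 0.95.

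At 4 dpf the signs of some receptors differed from those at 2 dpf. The 5-HT larvae had lower adrb1 (-0.35, SE 0.17, adjusted p = 0.625) and adra2b (-0.33, SE 0.15, adjusted p = 0.60), and higher adra2a (0.32), adrb2a (0.28), adra1d (0.26) and adra2c (0.23), none of which passed. No feature was called (0%), none of the 8 genes had an unadjusted p under 0.05, and 8.5% of all features did. The 95% intervals lay within -0.73 and 0.80.

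The difference between the 5-HT effects at 4 and 2 dpf was tested as an interaction. That test called 2.16% of features, 0.604% of the genes taken with 1 feature per symbol and none of the 8 receptor genes. The lowest adjusted p among them was that of adra2b, 0.0922, for a difference of -0.80 (SE 0.21), made up of 0.47 at 2 dpf and -0.33 at 4 dpf. Its adjusted p ran from 0.0735 to 0.279 over the alternatives. The differences for adra1aa (-0.60, adjusted p = 0.279) and adra1d (0.54, adjusted p = 0.259) also had an unadjusted p under 0.05 and did not pass. The count of features rested on single arrays, with 1253 called from all arrays and 0 to 325 when any 1 of the 8 control and 5-HT arrays was left out.

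On the probe sets used for the 8 genes, reserpine larvae lay close to their controls. None of the 8 genes passed, and none had an unadjusted p under 0.05 at either age, while limma called no feature at 2 dpf (0%) or at 4 dpf (0%), where 4.17% and 1.73% had an unadjusted p under 0.05. Without 2 dpf reserpine replicate 2, 97 features were called at 2 dpf. At 2 dpf the differences ran from -0.23 for adra2a to 0.12 for adra1ab and adra2b, with 95% intervals within -0.70 and 0.55. At 4 dpf they ran from -0.12 for adra1aa to 0.04 for adra1ab, with intervals within -0.54 and 0.47. A 2-fold difference, which is 1 on the log2 scale, lay outside all of these intervals, which do not cover the second probe set of adrb1. The second probe set of adrb1 read 0.54 higher than control at 2 dpf (SE 0.23, adjusted p = 0.998) and 0.54 higher at 4 dpf (SE 0.23, adjusted p = 1), with an unadjusted p of 0.0464 and 0.0448. The interaction of reserpine with age passed for none of the 8 genes and called no feature (0%, with 1430 at an unadjusted p under 0.05), with differences from -0.22 for adra1aa to 0.16 for adra2a.

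5-HT was also set against reserpine. At 2 dpf 0 of the 8 genes and 0% of features were called by limma (3513 features at an unadjusted p under 0.05), and adra1aa (0.44 higher after 5-HT, adjusted p = 0.815) and adra2b (0.36 higher, adjusted p = 0.818) had an unadjusted p under 0.05. At 4 dpf again 0 of the 8 genes and 0% of features were called (6270 at an unadjusted p under 0.05), and the differences ran from -0.31 for adrb1 to 0.39 for adra2a with none of the 8 at an unadjusted p under 0.05. The second probe set of adrb1 read 0.78 lower after 5-HT than after reserpine at 4 dpf (SE 0.23, unadjusted p = 0.00806, adjusted p = 0.297). The controls of each age served both treatments, so these comparisons share arrays.

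**Figure D3:**
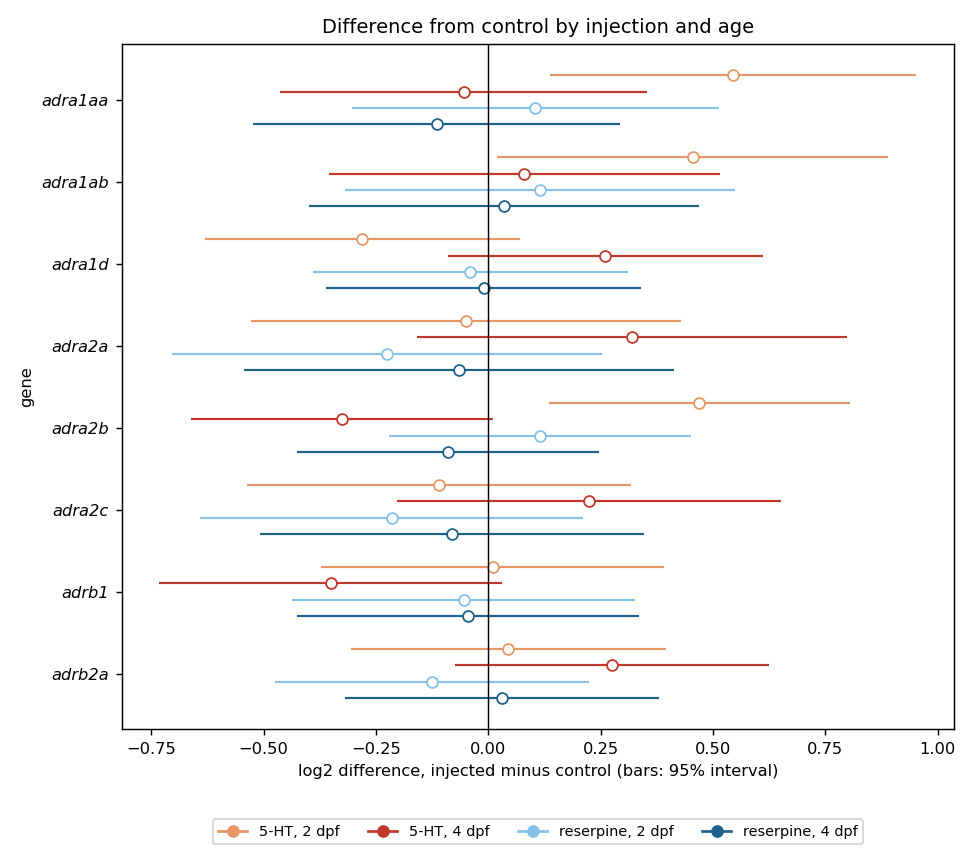
Log2 difference between injected and control larvae (horizontal axis) of the 8 receptor genes at each age, with 95% intervals from limma. All points are open because none passed, and the 5-HT differences of adra2b lie on opposite sides of 0 at the 2 ages.

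The position of a group's arrays against the 4 other arrays of its age was counted after the values had been seen, and is a description. At 4 dpf both 5-HT arrays lay beyond the other 4 arrays for 6 of the 8 genes, above them for adra1d, adra2a, adra2c and adrb2a and below them for adra2b and adrb1. Among all features tested this held for 28.6%. At 2 dpf it held for 3 of the 8 after 5-HT, adra1aa and adra2b above and adra1d below, against 19.9% of features. Control arrays stood apart in this way for 2 of 8 genes at 2 dpf (14.3% of features), adra1aa and adra2b below the rest, and for adra2b above the rest at 4 dpf (7.34%). Reserpine arrays stood apart for 0 of the 8 at 2 dpf (6.02% of features) and for 0 at 4 dpf (10.8%). The second probe set of adrb1 is not in these counts. On it the reserpine arrays lay above the rest at both ages and the 5-HT arrays below the rest at 4 dpf.

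The other 7 adrenergic receptor genes on the array extended the family. Averaged over injections adrb2b rose and adra1ba fell between 2 and 4 dpf, adra1bb rose, and 4 genes did not pass. These 3 of 7 stand beside 24.8% of all features and 37.4% of genes called. The alpha-1B gene adra1ba had the largest averaged change of the 15 receptor genes. It read 7.66 and 7.64 in controls, 7.96 and 7.88 after 5-HT, and 7.74 and 7.73 after reserpine at 2 dpf, and 7.02 and 7.14, 6.91 and 6.96, and 7.13 and 7.26 at 4 dpf. Every 4 dpf array lay below every 2 dpf array, and adra1ba and adrb2b were the 2 of these 7 genes whose ages did not overlap, against 14.5% of features. The averaged change was -0.70 (SE 0.07, adjusted p = 1.51e-04), a call that no alternative ended.

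By injection adra1ba fell by 0.57 in controls (adjusted p = 0.0214), by 0.99 in 5-HT larvae (adjusted p = 0.00199) and by 0.54 in reserpine larvae (adjusted p = 0.0331). The control and reserpine calls were each lost without any 1 of their 4 arrays, at adjusted p = 0.054 to 0.137 and 0.0602 to 0.163, and in fits of their arrays alone (adjusted p = 0.0841 and 0.239). The 5-HT call held in all 9 alternatives. The interaction of 5-HT with age was -0.41 and did not pass (adjusted p = 0.277).

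The second beta-2 gene adrb2b moved the same way as adrb2a. It read 7.32 and 6.95 in controls, 7.35 and 6.90 after 5-HT, and 7.48 and 6.98 after reserpine at 2 dpf, then 7.55 and 8.04, 7.60 and 7.63, and 7.82 and 7.83. All 4 dpf arrays lay above all 2 dpf arrays, by an average of 0.58 (SE 0.14, adjusted p = 0.0139), and this call held in all alternatives. The average rise of adra1bb was 0.38 (adjusted p = 0.0315), with ages that overlapped. Its call was lost without replicate 1 of 2 dpf control, 2 dpf 5-HT, 2 dpf reserpine or 4 dpf control, or replicate 2 of 4 dpf control, 4 dpf 5-HT or 4 dpf reserpine, at adjusted p = 0.0514 to 0.0878.

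The 4 genes that did not pass were adra2da (-0.20), adra2db (0.28), adrb3a (-0.13) and adrb3b (0.21). No injection comparison called any of these 7 genes, where 0 to 0.00688% of features were called, and their differences from control ran from -0.28 to 0.27. The highest of these was the difference of adra1ba in 5-HT larvae at 2 dpf (0.27, SE 0.13, adjusted p = 0.354), which did not pass.

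**Figure D4:**
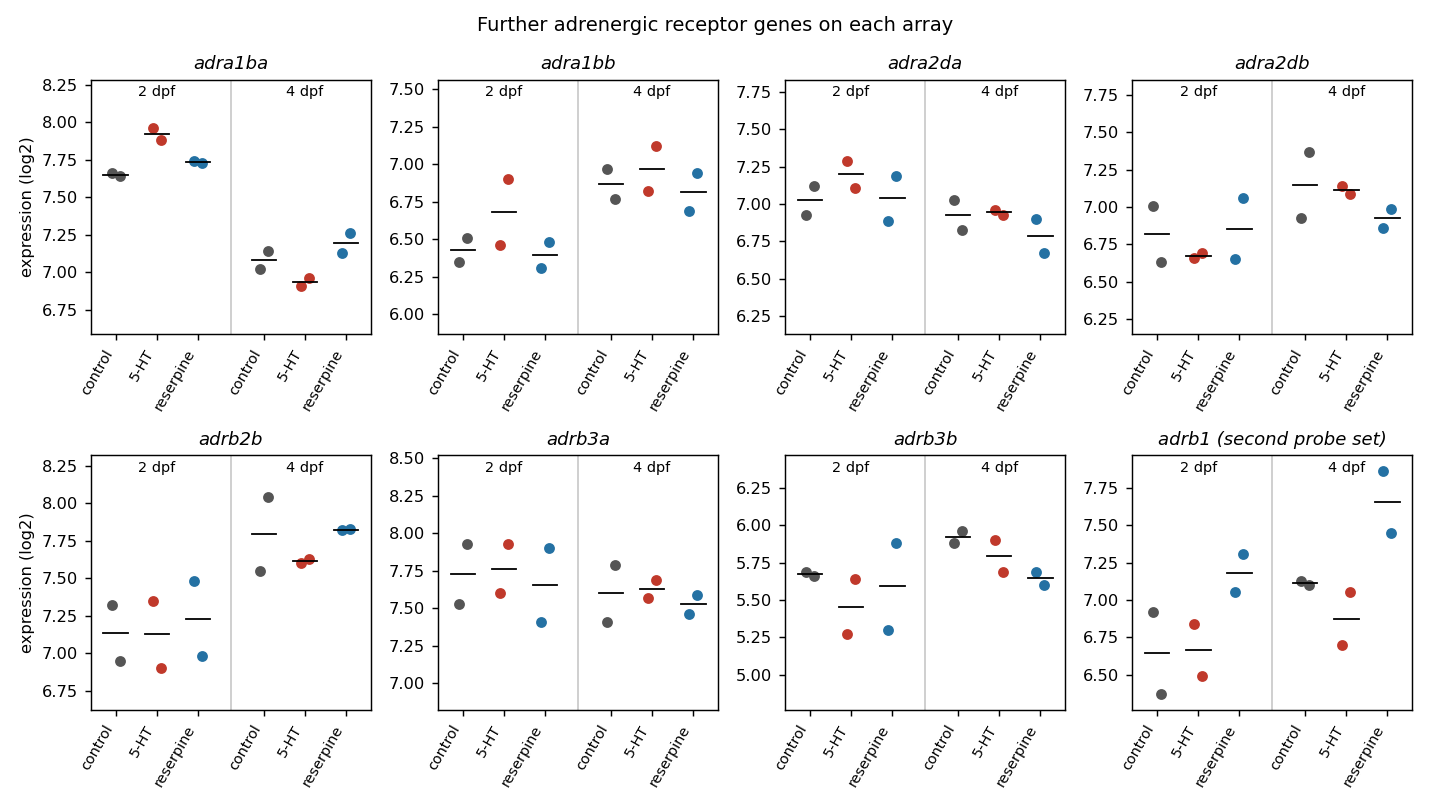
Expression (log2, vertical axis) of the 7 other adrenergic receptor genes and of the second adrb1 probe set on each array. Points are arrays and black lines means of 2. For adra1ba and adrb2b the ages do not overlap, which held for 14.5% of all features tested. On the second adrb1 probe set the reserpine arrays lie above the other arrays of their age. Reserpine arrays stood apart, above or below, for 6.02% of features at 2 dpf and 10.8% at 4 dpf.

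The genes around the receptors were taken from lists written with earlier results of these data known, and their averaged change from 2 to 4 dpf was read beside the 24.8% of features and 37.4% of genes called. Among 6 measured genes of ligand synthesis 2 rose and 1 fell. The decarboxylase gene ddc rose by 2.03 (SE 0.17, adjusted p = 3.56e-05). The gene th2, listed here by its name only, rose by 0.41 (adjusted p = 0.0138), and a part of its product in noradrenaline synthesis is not claimed. The gene pts, for an enzyme of tetrahydrobiopterin and pteridine synthesis, fell by 1.30 (adjusted p = 5.26e-05). The tyrosine hydroxylase gene th (-0.12, adjusted p = 0.589) did not pass, nor did dbh (-0.20, adjusted p = 0.193), whose product makes noradrenaline from dopamine.

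Of 5 genes of ligand transport and breakdown 2 rose and 1 fell. The noradrenaline transporter gene slc6a2 rose by 0.72 (SE 0.11, adjusted p = 0.00182), from 6.81 to 7.34 on the 2 dpf arrays to 7.45 to 8.03 at 4 dpf. The monoamine oxidase gene mao rose by 0.85 (adjusted p = 1.80e-04), and comtb, a catechol methyltransferase gene, fell by 0.55 (adjusted p = 0.0047). The vesicular transporter genes slc18a2 (-0.01) and slc18a1 (0.24), which encode the targets of reserpine, did not pass.

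Of 14 G protein alpha subunit genes 2 rose and 1 fell, with a list median of -0.02. Both that rose belong to the Gq class, gna14 (0.99, SE 0.09, adjusted p = 4.57e-05) and gna14a (0.87, adjusted p = 8.40e-04). The Gi gene gnai1 fell by 0.34 (adjusted p = 0.0188), a call lost without 4 dpf 5-HT replicate 1 or either 4 dpf control, where the count of falls was 0. Among 29 effector genes 9 rose and 4 fell, with a median of 0.08. The phospholipase C genes plcb1l (1.18, adjusted p = 1.19e-05) and plcb2 (1.2, adjusted p = 6.19e-04) and the inositol trisphosphate receptor gene itpr1b (1.21, adjusted p = 5.92e-05) rose, and the cyclic AMP response factor gene creb1a fell by 0.49 (adjusted p = 0.00154). The called genes of the cyclic AMP branch went in both directions. The 16 effector genes that did not pass are not named, and how many of them belong to this branch was not counted. The adenylate cyclase genes adcy1b (0.34), adcy2a (0.71), adcy2b (0.44) and adcy8 (0.22) rose. The cyclase gene adcy7 (-0.32) and the protein kinase A catalytic genes prkacba (-0.79) and prkacbb (-0.42) fell. The choice of these 7 genes was made with their changes in view. Of 17 alternatives, the call held in 17 for adcy2a, 16 for adcy1b, 14 for prkacba and 13 for adcy7. It held in 12 for adcy2b, 8 for prkacbb and 4 for adcy8. In this averaged comparison the fit of the compared groups alone used all 12 arrays and so repeated the fit. The mean of a gene's probe sets changed only adrb1. Neither of these alternatives could end the calls of these genes. Between the ages the mean of adcy8 went from 8.84 to 9.38 in controls and from 8.94 to 9.26 in reserpine larvae. After 5-HT it went from 9.14 to 8.95. The effector counts were 5 and 1 without 4 dpf 5-HT replicate 1, 7 and 1 when the 4 dpf control replicate 1 was dropped, and 7 and 2 when that of 2 dpf was.

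Of 18 genes that end the signal 9 rose and 1 fell, with a median of 0.26. The receptor kinase gene grk5 rose by 1.43 (SE 0.12, adjusted p = 4.47e-05), from 5.97 to 6.44 at 2 dpf to 7.21 to 8.27 at 4 dpf. The regulators of G protein signalling rgs5a (1.02, adjusted p = 2.60e-04) and rgs2 (1.18, adjusted p = 0.00214) and the phosphodiesterase gene pde8b (0.66, adjusted p = 0.0016) also rose. The number that rose was 7 to 9 without any 1 array. The 1 that fell was akap12b (-0.29), named after its value was seen. Its call was lost without replicate 1 of 2 dpf control, 2 dpf 5-HT, 4 dpf control or 4 dpf 5-HT. It was also lost without replicate 2 of 4 dpf 5-HT. More falls were counted when 2 dpf control replicate 2 was dropped.

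Of 12 genes that respond to cyclic AMP 3 rose and 2 fell, led by pck1, for a gluconeogenic enzyme, with a rise of 1.64 (adjusted p = 0.00101). The nuclear receptor genes nr4a2a (-0.63, adjusted p = 0.00427) and nr4a2b (-0.50, adjusted p = 0.00435), both of catecholaminergic neurons, fell, and the AP-1 gene junba rose by 0.81 (adjusted p = 0.0161). The number that rose was 2 without any 1 of 9 of the 12 arrays and 3 without the others. Across these 6 lists and all 15 receptors, 0 of 99 entries passed in any comparison between injections, or in the interactions with age. In the comparison of 5-HT with control at 2 dpf, 15 of the 99 had an unadjusted p under 0.05, against 14.9% of all features.

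**Figure D5:**
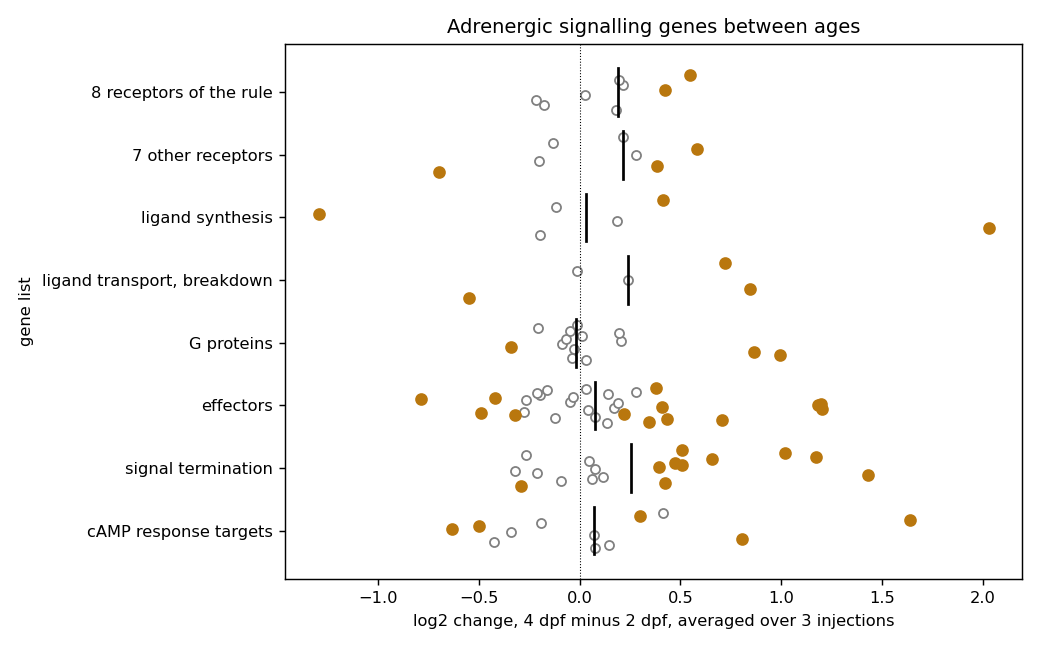
Log2 change from 2 to 4 dpf averaged over the 3 injections (horizontal axis) for each measured gene of 8 lists around the adrenergic receptors. Filled points passed at an adjusted p under 0.05, open points did not, and black bars are list medians, from -0.02 for G proteins to 0.26 for signal termination.

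Markers of cell types that carry adrenergic receptors or their ligands were read beside the same 24.8% of features and 37.4% of genes called between ages. Their part in the receptor changes was not tested. Of 10 smooth muscle and mural cell markers 6 rose, among them acta2 by 2.55, desmb by 2.20, cnn1b by 1.81 and myh11a by 1.62, and the list mean was 8.60 to 9.08 on the 2 dpf arrays and 9.82 to 10.1 on the 4 dpf arrays. All 7 melanophore markers fell, and 6 fell without any 1 of 10 of the 12 arrays, where oca2 (-0.43, named after its value was seen) lost its call. The list was led by mitfa (-0.87), dct (-0.89), tyr (-0.83) and tyrp1b (-0.78), from list means of 10.8 to 11.1 to means of 10.03 to 10.59. Of 9 noradrenergic neuron markers hand2 (-0.80), insm1a (-0.55) and ascl1a (-0.39) fell and slc6a2 rose, and the list means were 8.29 to 8.48, then 8.15 to 8.38. Of 10 cardiomyocyte markers 4 fell, led by tbx5a (-0.58) and myh6 (-0.45), and 2 or 3 fell without any 1 array. Their list means were 8.22 to 8.71 and 8.20 to 8.36.

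Of 10 pan-neuronal markers 2 rose and 4 fell, with list means of 10.2 to 10.6 and 10.2 to 10.4, and 1 to 3 rose and 1 to 4 fell without any 1 array. The number that rose was 3 without 2 dpf reserpine replicate 2, 2 without 4 dpf reserpine replicate 2, and 1 without any 1 of the other 10 arrays. The number that fell was 1 when the 4 dpf control replicate 2 was dropped. It was 2 when 5-HT replicate 2 or control replicate 1 of 2 dpf, or 5-HT replicate 1 of 4 dpf, was dropped. Among these markers, syt1a rose by 0.50 and stmn2b (-0.42), nefmb (-0.41) and elavl4 (-0.35) fell. Skeletal muscle markers had 1 rise and 1 fall among 11, myhz1.1 (0.41) and tnnt3a (-0.91), below the 24.8% of features and 37.4% of genes called. Their list means were 12.03 to 12.25, then 12.09 to 12.21. Of 7 hepatocyte markers ttr rose, and 3 fell without 2 dpf control replicate 1, on which the list mean was 9.41 against 10.45 to 11.02 on the other 11 arrays.

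For each of the 8 genes the 3 most similar expression patterns were found by Pearson's r across the 6 arrays of each age, ranked by the smaller of the 2 values. These are descriptions over arrays that share groups and, with 6 arrays an age, high values are easily reached among so many genes. The closest patterns to adra2b were parp4 (r = 0.972 at 2 dpf and 0.977 at 4 dpf), snx14 (0.955 and 0.957) and adcy8 (0.952 and 0.966). The adenylate cyclase gene adcy8 read 8.82 and 8.86 in controls, 9.08 and 9.20 after 5-HT and 8.95 and 8.93 after reserpine at 2 dpf, and 9.34 and 9.41, 8.96 and 8.94, and 9.25 and 9.27 at 4 dpf. It rose by 0.54 in controls (adjusted p = 0.0242), where 11.3% of features and 15.5% of genes were called. This call was not rerun under the alternatives.

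For adra2a the closest were mgat4c (0.963 and 0.972), abcd2 and purba, and for adra2c they were cabp7a (0.961 and 0.978), ppm1kb and cdk5r1a. For adrb1 they were dynlt1a (0.963 and 0.934), nek1 and dync2h1, and for adrb2a unc50, arhgef39 and ankdd1a, with a smaller r of 0.894 to 0.905. For adra1d they were rbbp7, crabp2a and gtf2a1 (0.934 to 0.942), for adra1ab pglyrp2, onecut3a and ECT2L (0.920 to 0.935), and for adra1aa pou2f3, cdh5 and map3k5 (0.886 to 0.893). Within the family the 8 genes form 28 pairs, and the pairs named next were picked after their values were seen. The genes adra2a and adra2c varied together, at r = 0.786 over the 2 dpf arrays and 0.972 over the 4 dpf arrays. The genes adra1d and adra2b varied in opposite ways, at -0.928 and -0.749. Some other pairs changed sign between the ages, such as adra1aa and adra1ab (0.861 and -0.225). How many did so was not counted.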

How the data were processed

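The values deposited by the authors were read as log2 expression of features on Affymetrix Zebrafish Gene 1.0 ST arrays, per the labels and the size of the values. Software and normalization: not given in the sources used here. Array medians lay between 6.44 and 6.56, and the number of arrays, 2 per group, limits the precision. Probe sets were named from the platform annotation, updated through RefSeq's gene table: 20491 carried 1 symbol, 842 several and 51911 none. Of the 20491, 20013 matched and 1 was updated. Features below the 25th percentile on all arrays, or on all but 1, were left out, and 58127 remained. All 15 receptor genes passed this filter.

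limma 3.58.1 in R 4.3.3 (lmFit, eBayes, two-sided tests) took all 12 arrays and a mean per group, with 6 residual and 3.53 prior degrees of freedom, and 12 comparisons were drawn from it. The fit was run on simulated data with independent noise and added changes larger than the receptor changes called here. Its outcome is not given and does not bear on those calls. The genes named by rule are the 15 receptors, up to 4 called genes of each list with the smallest p, and the 3 closest patterns of each of the 8 genes. Others were named outside this rule. These include th, dbh, slc18a1, slc18a2, the cyclase and protein kinase A genes, akap12b, oca2, gata2a and the genes with a constant replicate order. The receptors, lists and tests were chosen with earlier results of these data known. Alternatives were quantile normalization, no filter, fits of the compared groups alone, a replicate block, the mean of a gene's probe sets and leaving out each array. For the average over injections, the fit of the compared groups alone held every group and repeated the fit. The mean of a gene's probe sets changed adrb1 alone. Neither could end the averaged call of another gene.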

Additional observations from a re-analysis of the deposited data

Results flagged for a closer look

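Among the genes of the lists, 1 had a 5-HT effect that differed between ages by the interaction test, 1 of 9 noradrenergic neuron markers. That test called 2.16% of all features and 0.604% of the 18385 genes taken with 1 feature per symbol. A call of 1 gene is not read as a result about the lists. The transcription factor gene gata2a, listed as a noradrenergic neuron marker and also active in blood and vessel precursors, had a difference between the 5-HT effects at 4 and 2 dpf of -1.785 (SE 0.34, adjusted p = 0.0335). It read 9.24 and 9.06 in controls, 9.94 and 10.06 after 5-HT, and 9.96 and 9.11 after reserpine at 2 dpf, and 9.88 and 9.83, 9 and 8.84, and 9.93 and 9.73 at 4 dpf. The 5-HT arrays lay above the controls at 2 dpf and below them at 4 dpf, and the 2 dpf reserpine replicates lay apart. The call was lost without any 1 of the 8 control and 5-HT arrays (limma, adjusted p = 0.0742 to 0.135).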

How the results depend on the processing

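Of 992 recomputed changes of the 8 receptor genes, 982 kept their side of the threshold, with no called direction turned. A call was lost in 9 and gained in 1, adrb1 with the mean of its probe sets. Most of the 992 had not been called from all arrays, so they had no call to lose. The calls from all arrays were adra2b in controls, adrb2a in 5-HT larvae, and both genes in the average over injections. All 9 losses fell on the calls in controls or in 5-HT larvae. The number of the 8 genes called in controls between ages was 1, and 0 to 0 when 1 control array was left out. In 5-HT larvae it was 1, 0 to 0 when 1 of their arrays was left out, and 0 when their arrays were fitted alone. These fits have fewer arrays, and a group left with 1 array is assumed to vary like the others. Leaving out 1 array changed no other count of the 8.

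Fitting the compared groups alone changed the number of features called from 6578 to 4104 in controls between ages, from 4038 to 831 in reserpine larvae, from 4 to 274 for 5-HT at 2 dpf and from 1253 to 2270 for its interaction with age. Without 1 array, the features called were 1457 to 5411 in controls between ages, 1101 to 2127 in 5-HT larvae and 1279 to 3099 in reserpine larvae. For 5-HT against reserpine at 2 dpf they were 0 to 191, with 0 from all arrays. For 5-HT against control at 2 dpf the count was 8 after quantile normalization and 1 with a replicate block.

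Same-numbered arrays were not said to be paired. The correlations of their deviations from the group means ran from -0.07 to 0.33 over pairs of groups. All were positive except that between the 2 dpf and 4 dpf reserpine groups, so shared structure between same-numbered arrays is not excluded. A replicate block left the count of the 8 genes at 1 in controls, 1 in 5-HT larvae, 0 in reserpine larvae and 2 in the average over injections, and raised the features called in the last from 14409 to 16653.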

Other observations

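Replicate 2 read above replicate 1 in all 6 groups for adra1ab, by 0.02 to 0.53, and for adrb3a, by 0.12 to 0.49. Of the 58127 features tested, 10.5% were ordered the same way in all 6 groups, 2796 with replicate 2 higher and 3290 with replicate 1 higher. Among the cyclic AMP response genes fosab, nr4a1, nr4a3, junbb and crema read higher in replicate 1 in all 6 groups. The difference of replicate 2 from replicate 1 was -0.01 to -2.28 for fosab and -0.45 to -1.01 for junbb. Whether the replicate numbers mark a shared collection was not tested.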
